A study of Solenopsis invicta with 32 samples.

Results

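Of 16314 gene models counted in gynes of the fire ant Solenopsis invicta, 119 had widely different levels between the ovaries of overwintered gynes, and these genes are described here across ovaries and brains. Members were chosen by their measured levels in these libraries. A member had a median of at least 5 counts per 1000000 gene counts (CPM) over the 8 overwintered ovaries and a coefficient of variation (CV, the standard deviation over the mean) of at least 0.75 among them. Its ratio of overwintered to spring-reared medians, with 0.1 added to each, lay over 0.667 and under 3 in ovary and over 0.667 and under 1.5 in brain. The level was met by 7572 genes, of which 306 met the CV and 119 also met the ratios. A further reference is the 5996 genes that met the level and the ratios, whatever their CV.

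A gyne is a female ant of the reproductive caste, a queen or a future queen. All 16 gynes came from monogyne colonies (colonies headed by a single queen) and had the genotype SB/SB, with the SB form on both copies of the supergene that is linked to colony queen number in this species. In each of 2 treatments, overwintered and spring-reared, 8 gynes gave 1 ovary and 1 brain library each, with 1 gyne per colony, so the replicates were separate animals and colonies. Libraries were made by Smart-seq2, a protocol for very small amounts of RNA that copies polyadenylated RNA without keeping its strand, with an RNA input of 1.6 ng for a brain and 8 ng for an ovary. Colony codes start with different letters in the treatments, without exception, so whatever those letters stand for and the treatment cannot be told apart. The labels do not state the age, weight or mating of the gynes.

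An insect ovary holds egg chains with germ cells, nurse cells and a sheath of follicle cells, and its RNA content changes with the stage of the eggs. The brain is a tissue of nerve cells and glia that was taken from the same animal and is used here as a second view of each gyne. Whole-organ libraries average over all these cells, so fewer cells of a type and less RNA per cell cannot be told apart. The deposited tables carry gene model identifiers without names, and 0 of the 16314 identifiers matched the 16996 genes of the reference gene table, so roles and cell type markers cannot be given for the members. The 4 identifiers printed are those of the 2 members with the highest overwintered ovary medians and the 2 with the highest CVs.

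Gene counts per library ran from 9612985 to 23656547. The organs were checked with genes that spring-reared libraries hold at 50 CPM or more in one organ and under 0.5 CPM in the other. The 100 brain genes found this way summed to 28265 to 35099 CPM in overwintered brains and to 21.8 to 61.0 CPM in overwintered ovaries, and the 80 ovary genes to 19876 to 67785 CPM in overwintered ovaries. No overwintered library went against its organ label, and the spring-reared libraries chose these genes. Overwintered ovary 1 stood apart from its group: it had the lowest sum of those 80 ovary genes, and 8.97% of its reads were assigned to no feature against 6.14 to 7.07% in the other overwintered ovaries and 6.87 to 7.69% in spring-reared ovaries. This ovary also had the fewest gene counts of its group (11444437) and the largest share of unmapped reads (4.87%, against 1.86 to 4.45%). Results that rest on this library are given with and without it where both were run.

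Among the members, the overwintered ovary CV ran from 0.7501 to 1.41, with a median of 0.895, and the median level from 5.04 to 78.8 CPM. These values chose the members and are given as a description. Just inside the threshold lay CVs of 0.7501, 0.7505 and 0.7626, and just outside lay 0.7444, 0.7455 and 0.7464. The CV that counting error alone gives was 0.0274 to 0.105 for these genes, with a median of 0.0617, which does not cover amplification. Over the 5996 reference genes the median CV was 0.178, at a median level of 73.6 CPM against 13.2 CPM for the members.

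The 119 members held 2 patterns, which were separated after their values had been seen. In 100 of them the highest of the 8 overwintered ovaries was ovary 1, and in 19 it was another ovary. Of those 19, 4 peaked in each of ovaries 2, 3, 6 and 8, 2 in ovary 4 and 1 in ovary 5. Ovary 1 was also the highest library for 1927 of the 5996 reference genes, a share of 32.1%.

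**Figure D1:**
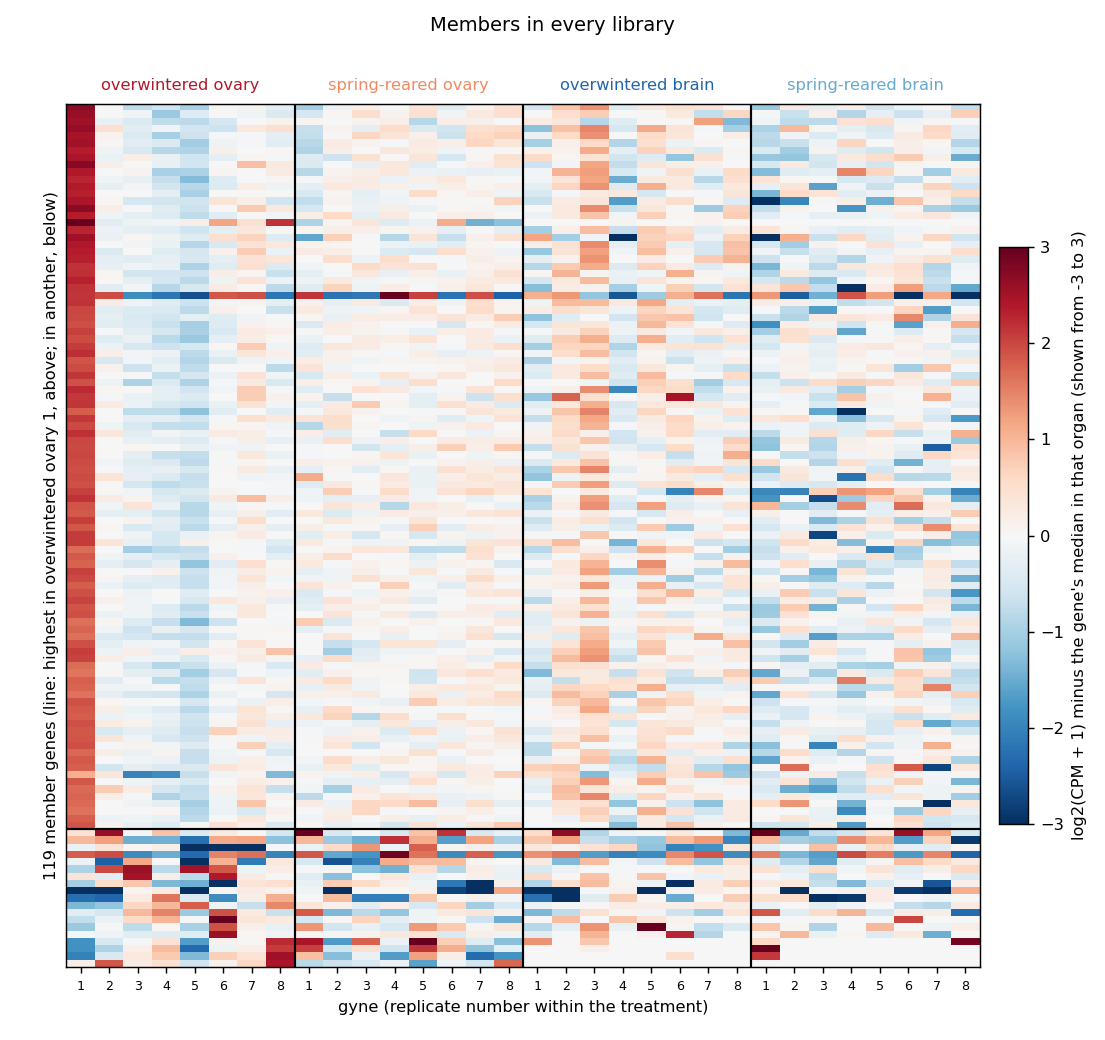
Level of each of the 119 members (rows) in each of the 32 libraries (columns), as log2(CPM + 1) minus the median of that gene over the 16 libraries of that organ; red is higher and blue lower. The 100 members above the line are red throughout overwintered ovary 1 and pale in other ovaries, whereas the 19 below it differ between gynes in a way of their own.

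For the 100 members that peaked in overwintered ovary 1, that library stood 3.39-fold to 32.2-fold above the median of the other 7, with a median of 4.65-fold. Over the 5996 reference genes the same ratio had a median of 1.06, and 466 of them (7.77%) were at least 2-fold up. The summed level of the 100 was 8636 CPM in overwintered ovary 1. It was 1240 to 2325 CPM in the other 7 overwintered ovaries and 1887 to 2334 CPM in the 8 spring-reared ovaries, so the latter groups overlapped and ovary 1 lay outside both. At the other end, 73 of the 100 had their lowest overwintered value in ovary 5, the library with the lowest no-feature share (6.14%) and the highest sum of ovary genes (67785 CPM). The share of reference genes lowest in ovary 5 was not counted, so the 73 has no background. The 10 most abundant genes of ovary 5 held 13.7% of its gene counts, against 4.96 to 7.67% in the other overwintered ovaries. The part of this in the 73 was not tested.

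Without ovary 1 the CV of the 100 over the remaining 7 libraries had a median of 0.260, and 2 of the 100 were still at 0.75 or above. Of the 19 others, 16 were still at or above it, as were 22 of the 5996 reference genes (0.367%). The 100 were set apart by their peak in ovary 1, so a fall in their CV without it follows from that choice. The contrast with the 19 is therefore a description. The whole rule applied without ovary 1 found 25 genes, 14 of which are among the 119. Scaling the counts by TMM, which adjusts library totals for their composition, left all 100 highest in ovary 1 with a median of 4.22-fold, and 67 of the 100 kept a CV of 0.75. The median log2 ratio of ovary 1 to the others over the reference genes was 0.08 by total counts and -0.06 by TMM.

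SINVBB1_02672 is an example of this pattern and had the second highest median of all members. Its overwintered ovary level was 302.1 CPM in ovary 1, and 77.8, 54.9, 46.0, 49.1, 78.0, 79.9 and 75.5 CPM in ovaries 2 to 8. In spring-reared ovaries it ran from 60.0 to 103.7 CPM with a median of 94.7 CPM. Ovary 1 is thus the sole ovary above 103.7 CPM, and the CV fell from 0.887 to 0.230 without it. SINVBB1_01884, with the second highest CV, had 142.5 CPM in overwintered ovary 1 and 10.2 to 22.4 CPM in the other 7. Its spring-reared ovaries held 9.96 to 29.4 CPM, so all 15 other ovaries lay below 30 CPM. The member whose spring-reared ovary values ordered the gynes most like SINVBB1_02672 had a Spearman rho of 0.905 with it over 8 libraries, and the next 2 had 0.881 and 0.857. These are the highest of all other members, picked for their size.

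**Figure D2:**
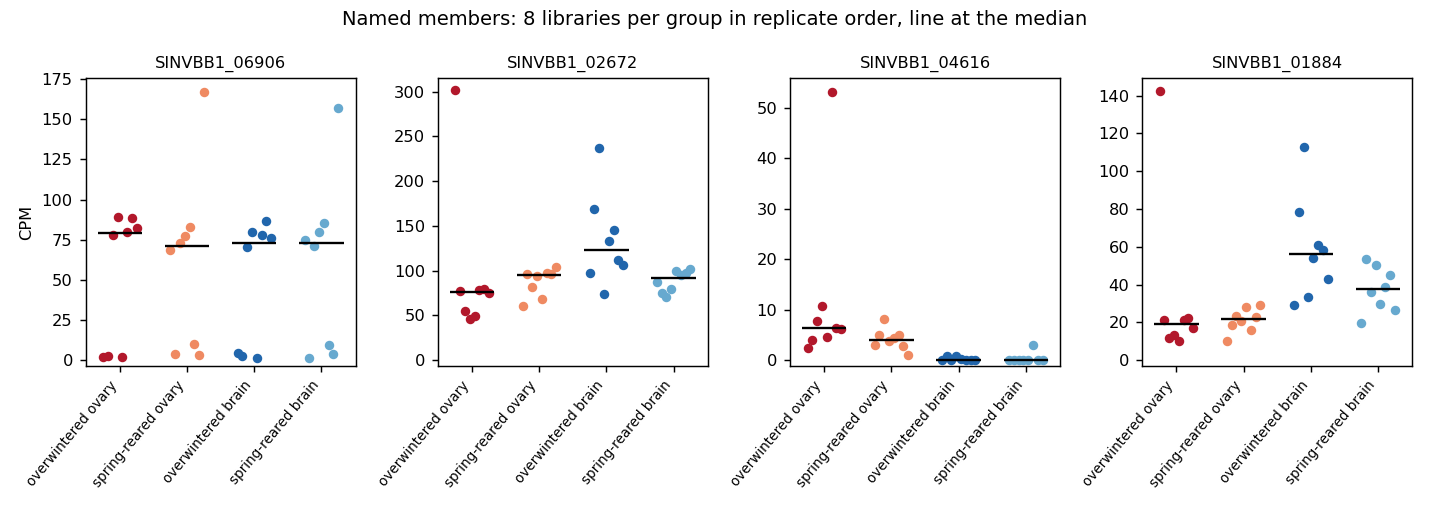
CPM of the 4 named members in each library (points, in replicate order within a group of 8) with the group median as a line; each panel has its own axis from 0. SINVBB1_06906 falls into a low and a high level in all 4 groups, SINVBB1_02672 and SINVBB1_01884 have 1 high overwintered ovary, and SINVBB1_04616 has 1 high overwintered ovary and is near 0 in brain.

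The brain of the same gyne did not stand high for these genes. In overwintered brain 1 the 100 members had a median of 0.70 times the median of the other 7 brains, and 15 of the 100 were above that median. For the 5996 reference genes the ratio was 0.918 and 37.4% were above. Among overwintered brains, brain 1 had the lowest no-feature share (10.1%), the largest share of unmapped reads (26.8%) and the fewest gene counts (9612985). The gyne and the library thus cannot be told apart here. SINVBB1_02672 had 97.7 CPM in brain 1 against 73.6 to 237.6 CPM in the other 7 overwintered brains, and SINVBB1_01884 had 29.3 CPM, the lowest of that group, against 33.2 to 113 CPM. Brain genes were not raised in overwintered ovary 1: the 100 brain genes summed to 48.6 CPM there, within the 21.8 to 61.0 CPM of the other overwintered ovaries.

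Many of the members were higher in brain than in ovary. Spring-reared gynes, whose ovary spread the rule did not use, were compared first. By edgeR's quasi-likelihood test with Benjamini-Hochberg adjustment over 9624 genes, 19 of 119 members were higher in ovary and 63 higher in brain at an adjusted p under 0.05. Over all genes tested, 37.2% were higher in ovary and 37.5% higher in brain. The median log2 difference, ovary minus brain, was -0.70 over the members and 0.01 over all genes tested. The floor on ovary level leans the choice of members towards ovary. However, the members were also less abundant than the reference genes. In spring-reared gynes their median level was 14.5 against 75.5 CPM in ovary and 20.5 against 53.6 CPM in brain. Genes matched for ovary level were not compared, and the part of level in the lean to brain was not tested. The lean to brain lay in the 100 genes that peaked in overwintered ovary 1 (13 higher in ovary, 59 higher in brain), while the 19 others had 6 and 4.

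Overwintered ovary values chose the members, so the organ contrast of overwintered gynes is a description. It gave 16 members higher in ovary and 51 higher in brain of 118 tested, beside 38% and 39.4% of all 9896 genes. With the gyne as a block the counts were 17 and 62 in overwintered gynes, beside 3801 and 3809 of all 9896 genes. In spring-reared gynes they were 23 and 57, beside 3738 and 3437 of all 9624 genes. Without gyne 1, and so without overwintered ovary 1, the overwintered counts were 15 and 75, beside 3813 and 3986 of all 9928 genes. SINVBB1_01884 was lower in ovary than in brain by a log2 difference of -1.12 (SE 0.23, edgeR adjusted p 0.000253) in spring-reared gynes, and the overwintered difference was -1.05 (SE 0.45). SINVBB1_02672 differed by -0.31 (SE 0.12, edgeR adjusted p 0.026) in spring-reared gynes. SINVBB1_04616 was higher in ovary, by 3.2 (SE 1.12, edgeR adjusted p 0.0154) in spring-reared gynes. For SINVBB1_06906 the difference was -0.28 (SE 0.87, edgeR adjusted p 0.782), with a spread between gynes larger than the difference between organs. The values of single genes are from the fit without the gyne as a block. Their SEs thus include the spread between gynes and do not use the pairing of organs.

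The treatment contrasts were used by the rule, so they are given as a description. In ovary 1 of 119 members was higher in overwintered gynes and 0 were lower by edgeR (adjusted p under 0.05), beside 5.3% and 5.28% of 9361 genes. An unadjusted p under 0.05 was reached by 8 members, beside 25.5% of all genes, and DESeq2 called 6 higher and 6 lower, beside 7.88% and 7.19%. Without overwintered ovary 1 and spring-reared ovary 1, edgeR called 1 member higher and 10 lower, beside 516 and 515 of all 9355 genes. In brain 1 of 113 was higher and 0 lower, beside 1.61% and 3.79% of 9570 genes, with 5 members at an unadjusted p under 0.05, beside 19.9%. DESeq2 also gave 1 and 0, beside 3.43% and 5.63%.

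The spread of the members was then read in the 3 groups whose CVs the rule did not use. In spring-reared ovaries 11 of 119 members had a CV of at least 0.75, beside 0.634% of the reference genes. These were 2 of the 100 genes that peaked in overwintered ovary 1 and 9 of the 19 others. The median spring-reared ovary CV was 0.210 for the 100, 0.693 for the 19 and 0.136 for the reference genes. The reference genes were more abundant. In spring-reared ovaries, overwintered brains and spring-reared brains their median levels were 75.5, 58.0 and 53.6 CPM. The members had 14.5, 22.0 and 20.5 CPM. Shares and CVs were not matched for level, and the part of level in them was not tested.

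In brain, members with a group median of at least 5 CPM were counted. Of 108 such members in overwintered brains 5 were variable, beside 0.459% of reference genes at that level, and these were 1 of 95 and 4 of 13. Of 106 in spring-reared brains 11 were variable, beside 1.28%, and these were 6 of 94 and 5 of 12. Median CVs of all such members were 0.421 and 0.400 in the 2 brain groups against 0.196 and 0.219 for the reference genes. In all 3 of these groups the 19 thus had a larger share of variable genes than the 100. With brain medians of at least 5 CPM, 4 members were variable in all 4 groups, of which overwintered ovary was fixed by the rule. The share of reference genes variable in all 4 was not counted, so this number has no background. Every one of these counts rests on 8 libraries.

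**Figure D3:**
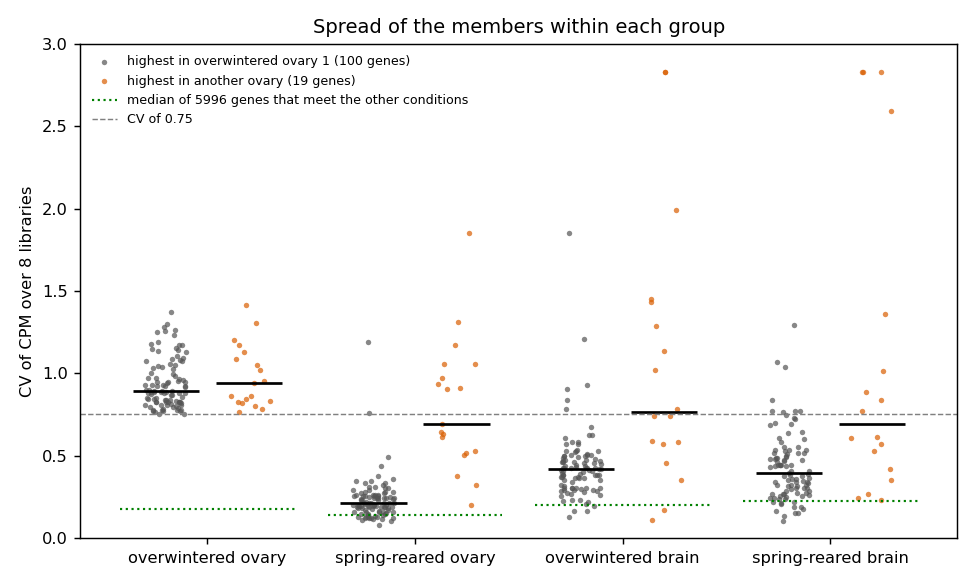
CV of CPM over the 8 libraries of each group for the 100 members that peaked in overwintered ovary 1 (grey) and the 19 others (orange), members of any level included; black lines are medians, the green dotted line is the median of the 5996 reference genes and the dashed line the threshold of 0.75. In spring-reared ovaries the medians were 0.210 and 0.693, and points at the top of the brain columns are members near 0 CPM there.

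The members were next compared between the ovary and the brain of the same gyne. SINVBB1_06906, the member with the highest median, had 2 separate levels. In overwintered ovaries 1 to 8 it had 2.0, 2.3, 78.2, 89.1, 1.7, 79.5, 88.6 and 82.1 CPM. In the brains of the same gynes it had 4.7, 2.6, 70.5, 79.9, 1.6, 78.0, 86.9 and 75.9 CPM. Gynes 1, 2 and 5 were low in both organs and the 5 others were high in both.

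Spring-reared ovaries 1 to 8 had 68.5, 4.0, 73.0, 77.0, 83.0, 10.1, 3.3 and 167.1 CPM of SINVBB1_06906, and their brains 74.8, 1.3, 70.9, 79.8, 85.1, 9.2, 4.1 and 157.2 CPM. Here gynes 2, 6 and 7 were low in both organs, and gyne 8 was the highest in both. All 16 gynes were thus on the same side in both organs, with no ovary between 10.1 and 68.5 CPM and no brain between 9.15 and 70.5 CPM. The low level occurred in 3 of 8 gynes of each treatment. Low libraries still held reads of this gene, with 26 counts in the lowest ovary, overwintered ovary 5.

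Across all genes with a median of at least 1 CPM in both organs, levels in ovary and brain were ranked over the gynes of each treatment and tested by exact permutation of the pairings. With 8 gynes the smallest p is 4.96e-05 and 0 of 112 members passed the adjustment in either treatment, as did 0% of all genes tested. At an unadjusted exact p under 0.05, 8 members were positive in overwintered gynes, beside 4.77% of 8393 genes, and 8 in spring-reared gynes, beside 5.2% of 8188. In a test added after seeing this, which combined both treatments and permuted within each, SINVBB1_06906 passed with a mean rho of 0.94 (exact permutation p 2.95e-06, adjusted p 0.00596 over 8069 genes). It was the 1 member called, beside 0.211% of all genes.

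In the combined test 12 members were positive at an unadjusted exact p under 0.05, beside 7.91% of all genes. These were 8 of the 14 tested among the 19 others and 4 of the 98 tested among the genes that peaked in overwintered ovary 1. The median of the mean rho was 0.64 for the 14 and -0.07 for the 98, against 0.07 over all genes. The 98 were set apart by a peak in overwintered ovary 1, and brain 1 was low for most genes of that kind. That gyne therefore bears on their rho values, and the combined test was not run without it. The contrast of the 14 with the 98 is a description. Within the 10 high gynes SINVBB1_06906 still followed the gyne, with a Spearman rho of 0.806 (permutation p 0.00732, adjusted p 0.0439 over 6 relations) and a Pearson r of 0.984 (permutation p 0.00448, adjusted p 0.0269). Pearson's r was 0.707 without the 2 gynes farthest from the median. Within the 6 low gynes rho was 0.257 (exact permutation p 0.658) and r was 0.826 (exact permutation p 0.219). Each side pooled the gynes of both treatments, 5 and 5 high and 3 and 3 low, and pairings were permuted across treatments. The high side holds spring-reared gyne 8, at 167.1 CPM in ovary and 157.2 CPM in brain. The medians of that side were 80.8 and 78.9 CPM.

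A search for other members of this kind was added after SINVBB1_06906 had been seen. It asked for a gap of at least 1.5 in log2(CPM + 1) between neighbouring gynes in both organs, at least 2 gynes on each side, and all 16 gynes on the same side in both. This was met by 3 of 119 members (2.52%) and by 5 of the 5996 reference genes (0.0834%), the 3 included. With a gap of 1, 7 members and 12 reference genes (0.2%) met it. A wide gap in ovary is itself a wide spread, and members were chosen for their spread in overwintered ovaries. These shares are therefore a description. The gap of 1.5 was met in ovary by 7 members and 11 reference genes, and in brain by 4 members and 20 reference genes.

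The other 2 members with the wider gap split the gynes identically to each other and differently from SINVBB1_06906. The first had 30.0, 26.4, 0.930, 0.581, 0.130, 24.8, 25.9 and 0.570 CPM in overwintered ovaries 1 to 8, and 22.9, 27.1, 4.05, 0.921, 4.43, 22.9, 34.3 and 1.499 CPM in their brains. Overwintered gynes 3, 4, 5 and 8 were low and spring-reared gynes 2, 3, 6 and 8 were low, in both organs. The second had at most 1.16 CPM in the ovaries and 1.198 CPM in the brains of these 8 gynes. In the other 8 gynes it had at least 15.8 and 13.5 CPM.

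A further member with a gap over 1 had the same low gynes, with at most 8.84 CPM in their ovaries and 10.3 CPM in their brains. The 8 high gynes had at least 36.3 and 28.4 CPM of it. All 3 of these members were highest in spring-reared gyne 4, with 59.8, 43.5 and 86.6 CPM in its ovary and 40.8, 21.3 and 47.9 CPM in its brain. Counts cannot tell near-identical copies of a gene apart.

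**Figure D4:**
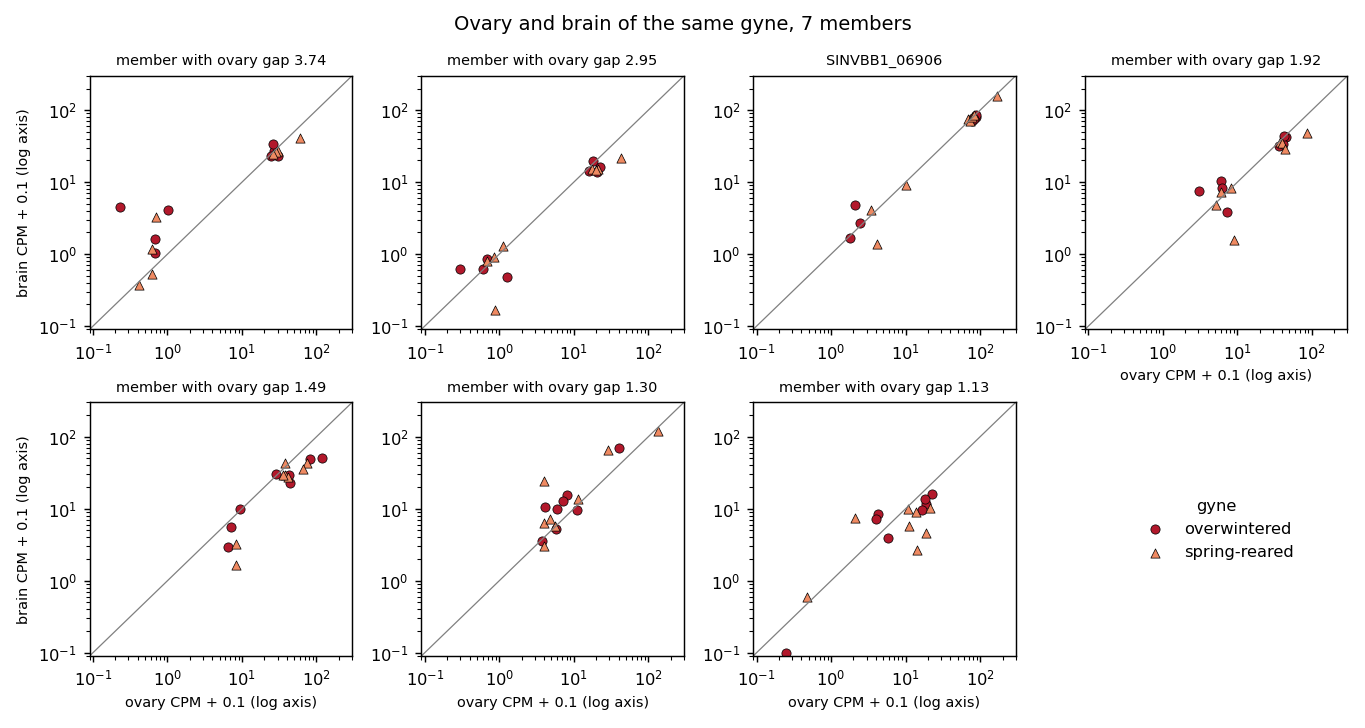
CPM in the ovary (horizontal) and the brain (vertical) of each of 16 gynes, both on log axes after adding 0.1, for the 7 members whose gynes fall on the same side of a gap of at least 1 in log2(CPM + 1) in both organs; circles are overwintered and triangles spring-reared gynes, the line marks equal levels, and panels are titled by the gap in ovary where the identifier is not printed. In the SINVBB1_06906 panel 6 gynes lie at the lower left and 10 at the upper right, with both treatments on each side.

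Some members were low or high in a few gynes in both organs. A member with an overwintered ovary median of 13.3 CPM had 0.522, 0.0750 and 0.217 CPM in overwintered ovaries 5, 6 and 7 and 12.8 to 19.6 CPM in the other 5. The brains of gynes 5, 6 and 7 had 63.1, 35.3 and 41.1 CPM of it and the other 5 had 161 to 229 CPM. All 8 spring-reared gynes were in the upper range, at 12.8 to 53.2 CPM in ovary and 119 to 274 CPM in brain. Another member had 40.1 CPM in overwintered ovary 2 and 70.7 CPM in the brain of that gyne, against at most 11.1 and 15.3 CPM in the other overwintered gynes. It was again high in spring-reared gynes 1 (136 CPM in ovary, 121 CPM in brain) and 6 (29.1 and 66.3 CPM), while spring-reared gyne 7 had 24.1 CPM in brain and 3.94 CPM in ovary. A member with a median of 6.27 CPM had 47.0 CPM in overwintered ovary 6 and 16.2 CPM in brain 6, the highest of each group, and at most 9.86 CPM in any spring-reared ovary.

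In other members the brain did not follow the ovary. SINVBB1_04616, with the highest CV, had 53.2 CPM in overwintered ovary 6 and 2.45 to 10.7 CPM in the other 7, and 1.10 to 8.22 CPM in spring-reared ovaries. Its brains held 0 to 0.909 CPM in overwintered gynes, and among spring-reared brains brain 6 had 3.00 CPM and the other 7 had 0 counts, which allows up to 0.242 CPM (3 counts in the smallest of them; counting error only). One member had 40.9 and 38.3 CPM in overwintered ovaries 3 and 6, at most 9.00 CPM in the other 6, and 4.09 to 9.46 CPM in all overwintered brains. Another ran from 7.51 to 75.05 CPM in overwintered ovaries, while the brains of the same gynes held 131 to 183 CPM.

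Median levels under 1 CPM in both brain groups were seen for 7 members, 5 of them among the 19. Of these, 3 moved together over the ovaries. They peaked in overwintered ovary 8, at 67.7, 45.5 and 33.1 CPM, and were low in overwintered ovaries 1 and 5, at 3.495 and 2.15, 1.83 and 2.09, and 0.437 and 1.37 CPM. In spring-reared ovaries all 3 were highest in ovary 5 (69.1, 115 and 12.9 CPM) and next highest in ovary 1 (64.7, 53.4 and 10.02 CPM). Spearman's rho between the third of them and the other 2 was 0.905 and 1 over the 8 overwintered ovaries and 0.929 and 0.810 over the 8 spring-reared ovaries, given as a description of genes picked for their likeness. Spring-reared brain 1 held 29.0 CPM of the first and 3.32 CPM of the third, while the other 7 spring-reared brains had 0 counts of both. Another member of this kind peaked in overwintered ovary 8 (48.5 CPM) and spring-reared ovary 8 (29.7 CPM) and had 0 counts in all 16 brains, which allows up to 0.312 CPM in the smallest of them.

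The 100 genes that peaked in overwintered ovary 1 were set beside the share of reads assigned to no feature, a library measure, in each group. This was added after the role of ovary 1 had been seen. In overwintered brains, whose CVs the rule did not use, 46 of the 98 such members tested had a positive Spearman rho at an unadjusted exact p under 0.05, beside 11% of 9459 genes. Their median rho was 0.71 and 91 of the 98 were positive, whereas 0 of the 14 others tested passed. The 0.71 and the 91 are given without the same values over all genes, so they are not read as particular to the members. No gene passed the adjustment over all genes in this group. Brain 3 had the highest no-feature share (17.0%, against 10.1 to 14.2%) and the highest summed level of the 100 members (6051 CPM, against 2933 to 4922 CPM), and 60 of the 119 members peaked there, as did 22.5% of the reference genes. Brain 3 also had the most gene counts of the overwintered brains (17032204) and the smallest share of unmapped reads (6.37%, against 12.8 to 26.8%). Relations of the members to those measures were not tested. The count of 46 fell to 27 without brain 3, beside 6.74% of all genes, and to 28 without brain 4, beside 8.09%.

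The level of SINVBB1_02672 and the no-feature share over the 8 overwintered brains had a Pearson r of 0.924 (exact permutation p 0.00164), a Spearman rho of 0.929 (exact permutation p 0.00223, adjusted p 0.152) and an r of 0.900 without the 2 farthest brains (exact permutation p 0.0111). For SINVBB1_01884 r was 0.924 (exact permutation p 0.00104), rho 0.881 (exact permutation p 0.00724, adjusted p 0.224) and r 0.762 without the 2 farthest (exact permutation p 0.0778). Neither relation passed the adjustment over all genes tested. For SINVBB1_06906 rho was -0.45 (exact permutation p 0.267).

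In overwintered ovaries, which chose the members, 60 of the 100 were positive at that unadjusted p, beside 17.5% of 9085 genes, and 34 without ovary 1, beside 12.4%. The counts were lower in the spring-reared groups. Of 100 members 1 passed in spring-reared ovaries, beside 3.33% of 9044 genes, with a median rho of -0.13, and 1 of 98 passed in spring-reared brains, beside 2.39% of 9075 genes, with a median rho of 0.17. The no-feature share spanned 6.87 to 7.69% and 10.1 to 11.7% in those groups, less than in overwintered libraries. The difference between treatments was not tested, and neither was the part of the no-feature reads in these levels.

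**Figure D5:**
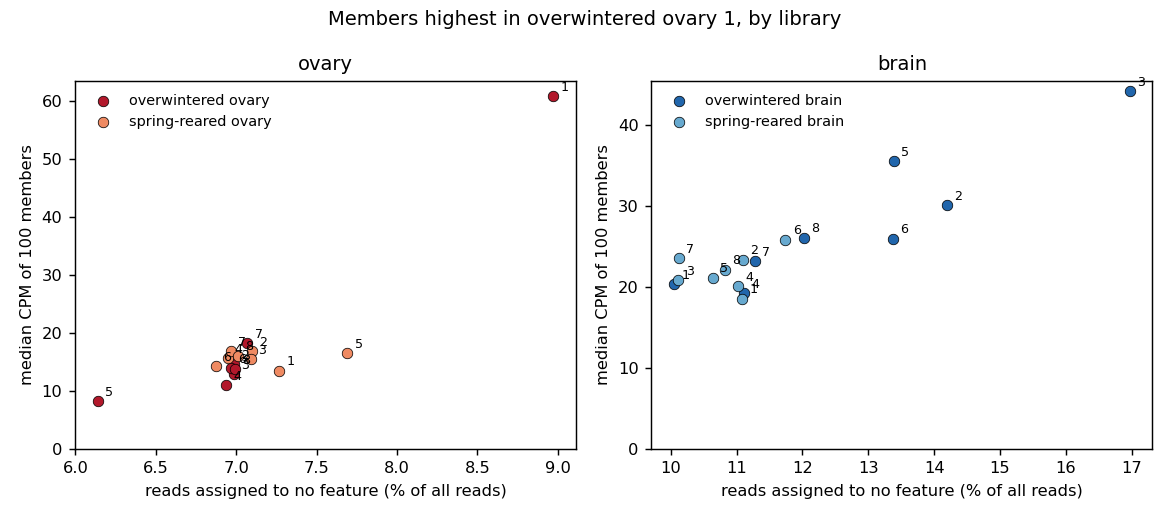
Median CPM of the 100 members that peaked in overwintered ovary 1 (vertical) against the share of reads assigned to no feature (horizontal, percent of all reads) in each library, ovaries on the left and brains on the right; numbers are replicates. Overwintered ovary 1 (8.97%) and overwintered brain 3 (17.0%), which are different gynes, lie at the upper right of their panels, and spring-reared libraries lie close together.

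Pairs of the 100 members ordered the libraries alike in the overwintered groups. Over 4950 pairs the median Spearman rho was 0.738 in overwintered ovaries, where they were chosen, 0.607 there without ovary 1, and 0.452 in overwintered brains. It was 0.071 in spring-reared ovaries and 0.095 in spring-reared brains (4851 pairs). Pairs among the 19 others had medians of 0.119, 0.048, -0.024 and 0.082 in overwintered ovaries, spring-reared ovaries, overwintered brains and spring-reared brains. Genes of a pair share their libraries and depth, and these rho values are descriptions without a test. Pairs of reference genes were not compared, so the rho values have no background over all genes. The 19 were set apart by a peak in another ovary, which bears on their overwintered ovary values.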

How the data were processed

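Gene counts were whole numbers per gene model and library, deposited by the authors. Per the submitters' processing notes the tools included STAR 2.7.3a, Trim Galore 0.6.5 and edgeR, and neither build nor gene set is named in the sources used here. Each file's 1 count per gene ignores strand, so overlapping, antisense or near-identical genes may share reads. The 4 lines that name no gene stayed out of library sizes and tests, and their no-feature line gave the no-feature share. Organs with 1 colony code were taken as 1 gyne, per the labels.

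CPM was the count over the sum of gene counts, times 1e+06. Contrasts used edgeR 4.0.16 (quasi-likelihood, TMM, filterByExpr, robust) in R 4.3.3, with DESeq2 1.42.0 as an alternative and Benjamini-Hochberg adjustment over all genes tested. Relations used two-sided exact permutation tests in Python 3.11.15, where the 8 gynes of a group give 40320 pairings, and 100000 resamples for the relations over 10 gynes. On simulated counts edgeR recovered 63% of 2-fold and 89% of 4-fold changes in the organ contrast of spring-reared gynes. The simulated test of ovary against brain recovered 0% in 1 treatment and 88.5% with both combined, so the former says little at this size. Members and settings were chosen with earlier results of these data known. The named members are those with the 2 highest overwintered ovary medians and the 2 highest CVs. Members are not replicates of a condition, and intervals of counting error do not cover the amplification of RNA without molecular identifiers. The deposited CPM tables were not used.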

Additional observations from a re-analysis of the deposited data

Results flagged for a closer look

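Single libraries far from the rest of their group of 8 were sought for the 4 named members, the 2 summed levels and the no-feature share. Of 28 groups examined 6 had such a library. Chance flags about 1 in 20 groups, but 4 of the 6 follow from how the members were chosen (the overwintered ovary values of the 3 named members and of the summed level), so the count of 6 cannot be read against that share.

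Overwintered ovary 1 was the library in 4 of the 6. It had 302.1 CPM of SINVBB1_02672 against 46.0 to 79.9 CPM in the others, 142.5 CPM of SINVBB1_01884 against 10.2 to 22.4 CPM, a summed level of 8636 CPM for the 100 members that peaked there against 1240 to 2325 CPM, and a no-feature share of 8.97% against 6.14 to 7.07%. Overwintered ovary 6 had 53.2 CPM of SINVBB1_04616 against 2.45 to 10.7 CPM. Spring-reared brain 6 had 3.00 CPM of SINVBB1_04616, and the other 7 spring-reared brains had 0 counts.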

How the results depend on the processing

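The number of members was 211 at a CV of 0.6, 36 at a CV of 1, 180 at a floor of 1 CPM, 36 at a floor of 20 CPM and 27 with the scaled median absolute deviation in place of the CV, and ran from 25 (without ovary 1) to 136 when 1 overwintered ovary was left out. TMM gave 110 and DESeq2 size factors 118, of which 79 and 85 are among the 119. Variable members were 6 in spring-reared ovaries, 3 in overwintered brains and 3 in spring-reared brains at a CV of 1, and 11 and 20 in the brain groups at a CV of 0.6. With 1 library left out they ran from 9 to 12, from 2 to 6 and from 7 to 11. The organ contrasts stayed within 1.5 times under every alternative run. The replicate block gave 17 and 62 members in overwintered gynes and 23 and 57 in spring-reared gynes, with the counts over all genes given above. It left 0 members called in the treatment contrast of brain, beside 85 higher and 223 lower of all 9570 genes. In that contrast the replicate numbers mark no shared animal.

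Members higher in overwintered ovary were 6 with DESeq2, 0 with no filter on low counts, 0 at an adjusted p under 0.01 and 0 to 1 with 1 replicate number left out. Those lower were 6 with DESeq2 and 0 to 10 with 1 replicate number left out. The 10 were seen without replicate 1 of both treatments, beside 515 of all 9355 genes. In brain 0 were higher with no filter, 0 at an adjusted p under 0.01 and 0 to 0 with 1 number left out. The causes were not tested. Positive relations to the no-feature share were 94 by Pearson's r (23.6% of all genes), 39 with TMM (5.64%) and 34 to 70 with 1 library left out (7.66 to 19.8%) in overwintered ovaries. With TMM the median rho over all genes there was 0, against 0.38 by total counts. The same 3 alternatives gave 3 (5.12%), 3 (3.14%) and 0 to 3 (1.98 to 4.59%) in spring-reared ovaries and 3 (3.07%), 2 (1.91%) and 1 to 4 (2.00 to 3.18%) in spring-reared brains, and leaving out a library gave 27 to 46 (6.74 to 12.8%) in overwintered brains. A gap of 1 gave 7 members. Adding the counts of both strands was not run, since the files used here hold 1 count column. The number of gynes limits the tests.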
